A study of Mus musculus with 6 samples.

Results

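The coronins are a family of actin-binding proteins, and 6 of them were followed here in mouse thymic lymphomas: Coro1a, Coro1b, Coro1c, Coro2a, Coro2b and Coro7. Every probe set whose gene symbol in the array's annotation was exactly 1 of these names was taken, which gave 17 of the 45101 probe sets on the array and 6 of the 18193 genes named on it. The family was chosen because Coro2a had stood out when the same tumours were compared earlier. The differences of the coronins between the genotypes are therefore given as a description, with no test of their own.

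Each of the 6 tumours was hybridised to 1 array and came from a mouse with 2 IkL alleles of Ikzf1, which encodes Ikaros, a transcription factor of lymphoid cells, and a CD4-Cre transgene, whose Cre recombinase is made in developing thymocytes. The IkL allele lowers Ikaros activity, and tumours of both groups carried it and the Cre. The 3 Notch1+/+ tumours had 2 wild-type Notch1 alleles and came from mice aged 18 to 20 weeks. The 3 Notch1f/f tumours carried 2 floxed alleles, from which Cre removes the promoter and exon 1 of Notch1 according to the labels, and came from mice aged 8 to 10 weeks. Genotype and age cannot be told apart in this design, and 3 arrays per group limit the precision of every value. The tumour cells were freed by crushing the tissue and were not sorted, so each array holds whatever other cells were present.

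A coronin folds its WD40 repeats into a beta-propeller that binds actin filaments, and most members join with each other through a coiled coil at the end of the protein. Type I coronins, Coro1a to Coro1c, bind the Arp2/3 complex, which starts branched filaments, and help cofilin to take old filaments apart. Coro1a is the abundant coronin of leukocytes and is needed for the survival and traffic of naive T cells. Coro2a and Coro2b are type II coronins, and Coro2a has also been found in the NCoR corepressor complex. Coro7, with a pair of propellers and no coiled coil, is a protein of the Golgi apparatus.

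The start regions of the coronin genes are shown because Ikaros binds sites with the core GGGAA, and CSL, the DNA-binding partner of Notch, binds the core TGGGAA, which contains it. The RefSeq promoter table (GRCm38.p6) held 7 start windows for 5 of the 6 genes. The 250 bases before each start are printed from 5′ to 3′ on the strand of the gene, which is the minus strand for all 4 windows below. Capitals mark GGGAA or TGGGAA read on either strand.
Coro2a outermost start, chr4:46601930-46602179: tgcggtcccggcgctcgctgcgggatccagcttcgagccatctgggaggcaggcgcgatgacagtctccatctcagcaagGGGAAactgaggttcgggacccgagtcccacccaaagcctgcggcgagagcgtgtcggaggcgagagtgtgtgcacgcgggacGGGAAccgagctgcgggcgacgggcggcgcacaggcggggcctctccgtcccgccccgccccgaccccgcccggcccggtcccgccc
Coro2a internal start, chr4:46566441-46566690: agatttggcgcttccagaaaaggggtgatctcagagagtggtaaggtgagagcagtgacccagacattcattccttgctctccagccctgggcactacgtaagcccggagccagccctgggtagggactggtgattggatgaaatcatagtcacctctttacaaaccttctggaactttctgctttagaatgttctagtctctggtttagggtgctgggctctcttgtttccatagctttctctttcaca
Coro2b, chr9:62537045-62537294: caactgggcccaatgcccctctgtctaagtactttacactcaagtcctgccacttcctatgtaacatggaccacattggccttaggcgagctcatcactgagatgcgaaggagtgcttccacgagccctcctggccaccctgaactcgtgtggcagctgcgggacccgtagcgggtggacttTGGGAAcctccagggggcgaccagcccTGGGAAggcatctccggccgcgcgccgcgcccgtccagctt
Coro1a outermost start, chr7:126704817-126705066: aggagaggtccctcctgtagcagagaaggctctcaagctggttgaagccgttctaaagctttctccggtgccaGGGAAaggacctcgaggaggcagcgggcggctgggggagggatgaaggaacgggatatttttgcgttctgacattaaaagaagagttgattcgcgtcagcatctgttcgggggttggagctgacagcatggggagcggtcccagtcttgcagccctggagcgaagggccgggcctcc
The outermost Coro2a window held 2 GGGAA cores, 170 and 87 bases before the start, and the internal Coro2a window held none. The Coro2b window held 2 cores, both as TGGGAA, at 67 and 40 bases before the start as counted for GGGAA, and it was the only coronin window with TGGGAA. Each Coro1a window held 1 GGGAA core, and the Coro1c and Coro7 windows held none. GGGAA was present in 4 of the 7 coronin windows, and in 56.2% of all 32851 promoter windows of the same length, with 2 or more in 21.2% of them. TGGGAA was present in 21.6% of all windows, and 2 or more times in 2.77%. These matches describe letters only, and no binding was measured in these tumours. The genes lie apart in the genome: Coro2a is at chr4:46536937-46601929, Coro2b at chr9:62419490-62537044, Coro1a at chr7:126699774-126704816, Coro1b at chr19:4148611-4154035, Coro1c at chr5:113842439-113908706 and Coro7 at chr16:4626884-4679720 in the same build.

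Values are MAS5 intensities, on a scale where the trimmed mean of each array is 100. Between 23.1% and 25.0% of all probe sets were over 100 on each array. Notch1f/f tumour 2 stood between the groups, with a Pearson correlation over tested probe sets of 0.955 to 0.961 with the Notch1+/+ arrays and of 0.945 to 0.960 with the other Notch1f/f arrays. The labelled cell type was checked with 9 measured T cell genes, whose summed intensity was 14078 to 17846 in the Notch1+/+ tumours and 18796 to 22203 in the Notch1f/f tumours. Notch1 was read by 2 probe sets, at 567.9 to 1792.5 and 2531.9 to 3636.5 in the Notch1+/+ tumours and at 1346.2 to 2211.5 and 3042.6 to 3418.5 in the floxed ones. Arrays of this type read transcripts near their 3′ end and the position of these probe sets was not looked up, so they do not check the deletion. The array controls that read 18S ribosomal RNA gave more signal with floxed Notch1, at 250 to 319 against 64.8 to 125 for the 3′ one, while the 3′ to 5′ ratio of Gapdh overlapped, at 0.836 to 1.03 against 0.767 to 1.07. Their part in the coronin values was not tested. The 2 Ikzf1 probe sets had 51.8 to 91.8 and 227.5 to 425.5 in the Notch1+/+ tumours and 18.4 to 61.0 and 349.9 to 546.1 in the Notch1f/f tumours.

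The comparison of the groups asks how these actin regulators differ in lymphomas that arose with floxed rather than wild-type Notch1. Coro2a was the coronin with the widest separation, about 4-fold lower in the Notch1f/f tumours. Coro2b and Coro1c also had lower mean intensities there, while Coro1a and Coro1b had higher ones and the probe sets of Coro7 did not agree. The log2 difference was positive for 9 of the 17 probe sets and negative for 8. The groups did not overlap for 4 probe sets, of which 2 (Coro1a and Coro7) were higher with floxed Notch1 and 2 (Coro2a and Coro1c) lower. Over all 27022 probe sets that passed a filter on dim signal, the groups did not overlap in 18.6%, with 8.13% higher and 10.4% lower. After Benjamini-Hochberg adjustment in limma, no coronin probe set passed 0.05, as against 0.0185% of all tested probe sets, or 5 (2 higher and 3 lower, and 10 higher and 5 lower after centring each array on its median). With arrays weighted by their quality, 1 coronin probe set, that of Coro2a, passed, where 0.0999% of all tested probe sets did. Since the family was chosen from this comparison, nothing is read from these counts.

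**Figure D1:**
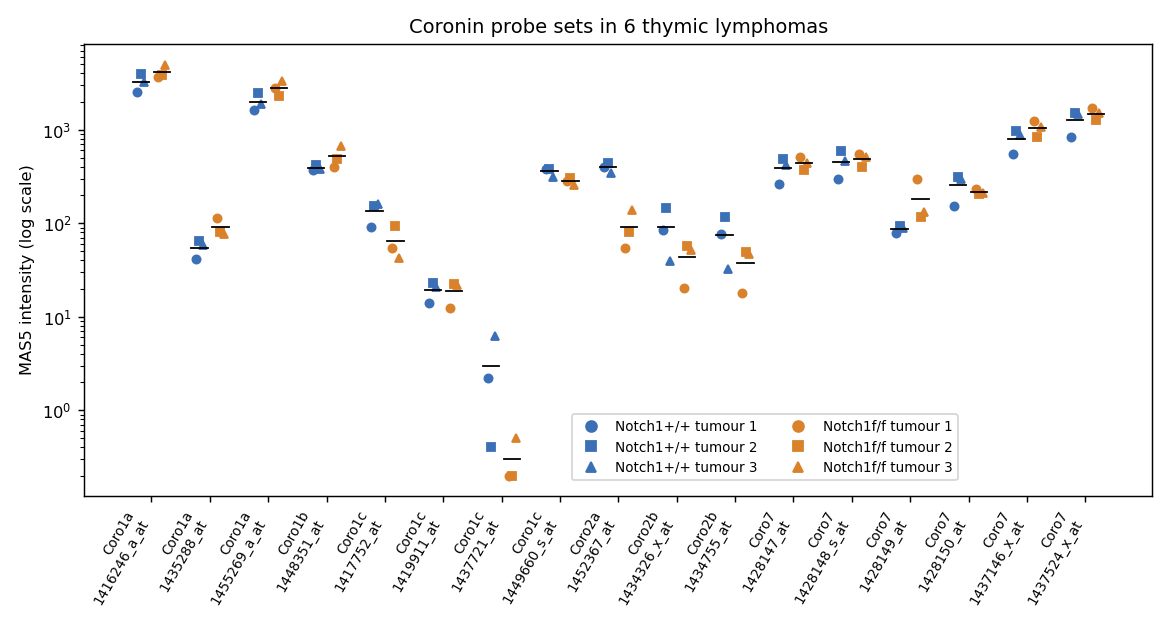
MAS5 intensity (log axis) of the 17 coronin probe sets in each of the 6 tumours, with Notch1+/+ tumours in blue, Notch1f/f tumours in orange, marker shapes for tumours 1 to 3 and a black line at each group's mean. The Coro2a points form separate groups, at 346.3 to 445.4 and 54.2 to 137.5, while most other probe sets have groups that overlap.

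Coro2a, a type II coronin known from focal adhesion turnover and as part of the NCoR complex, was read by 1 probe set. Its intensity was 395.2, 445.4 and 346.3 in Notch1+/+ tumours 1, 2 and 3, and 54.2, 80.0 and 137.5 in Notch1f/f tumours 1, 2 and 3. All 3 Notch1f/f tumours lay below all 3 Notch1+/+ tumours, and the lowest Notch1+/+ value was 2.52 times the highest Notch1f/f value. The means were 396 ± 49.6 (SD, n = 3) and 90.6 ± 42.6, and the log2 difference of intensity + 16 was -2.02 ± 0.30 (SE), a 4.05-fold lower level in the Notch1f/f tumours. A level at least 2-fold lower by this log2 difference, with groups that did not overlap, was seen in 1.11% of all tested probe sets. Coro2a was picked from this same comparison, so nothing is read from that share. The spread within the groups was unequal, since the Notch1f/f tumours ranged over 2.54-fold and the Notch1+/+ tumours over 1.29-fold. Notch1f/f tumour 1 was lowest and Notch1f/f tumour 3 highest of its group. The log2 difference was -1.98 without Notch1f/f tumour 2, which stood between the groups on the whole array, and -1.75 to -2.32 with any 1 tumour left out. With no second probe set, a shift confined to 1 part of the transcript cannot be told apart from a shift of the whole gene.

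Coro2b, the other type II coronin, best known from the nervous system, was read by 2 probe sets and varied widely within each group. On its x_at probe set, a design that may catch related transcripts, the Notch1+/+ tumours had 83.7, 147.2 and 39.7, and the Notch1f/f tumours 20.4, 57.4 and 51.4. The other probe set gave 77.3, 115.6 and 32.4 against 17.8, 49.4 and 46.6. Both put the 6 tumours in the same order, from Notch1+/+ tumour 2 at the top through Notch1+/+ tumour 1, Notch1f/f tumours 2 and 3 and Notch1+/+ tumour 3 to Notch1f/f tumour 1 at the bottom. The groups overlapped on both because Notch1+/+ tumour 3 lay below Notch1f/f tumours 2 and 3. The log2 differences were -0.78 ± 0.42 and -0.70 ± 0.41 (SE), and they were -0.40 and -0.38 without Notch1+/+ tumour 2 and -1.18 and -1.10 without Notch1+/+ tumour 3. The range among the 3 Notch1+/+ tumours alone was 3.71-fold and 3.57-fold, wider than that of Coro2a in either group.

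Fibroblast markers also varied widely among the tumours. The summed intensity of 7 measured fibroblast genes was 2205, 2552 and 1401 in Notch1+/+ tumours 1 to 3 and 868, 1135 and 1951 in Notch1f/f tumours 1 to 3. Notch1+/+ tumour 2 had the highest and Notch1f/f tumour 1 the lowest sum, as for Coro2b and Coro2a, and the sum had a range of 2.94-fold over the 6 tumours, against 8.22-fold for Coro2a and 7.22-fold and 6.49-fold for Coro2b. Pdgfrb alone made up 50.2% to 93.6% of the sum. Leaving it out, a step chosen after its values were seen, gave 229, 1270 and 297 against 55, 105 and 124. The sum of the other 6 genes was thus higher in all 3 Notch1+/+ tumours. Most of it in Notch1+/+ tumours 1 and 2 was Col1a2, which had 190.1, 977.6 and 53.3 against 13.2, 39.8 and 71.3, with overlap. A sum without Col1a2 as well was not taken, so a joint shift of the other genes is not shown. Single markers did not all share the order of the full sum: Notch1+/+ tumour 2 was the highest for 4 of the 7 and Notch1f/f tumour 1 the lowest for 4. None of the 7 markers had groups that did not overlap, where 18.3% of all tested genes had. None was under the filter's intensity of 7.6 on every array. The part of these cells in the Coro2a and Coro2b values was not tested. In unsorted tissue, fewer cells of a type and less RNA per cell cannot be told apart.

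Coro1a, the leukocyte coronin, was read by 3 probe sets with the same direction. On the brightest, the Notch1+/+ tumours had 2539.0, 3902.6 and 3270.3, and the Notch1f/f tumours 3635.8, 3807.3 and 4980.5. On the next, they had 1621.4, 2485.3 and 1890.4 against 2818.3, 2321.2 and 3304.0. Notch1+/+ tumour 2 reached into the Notch1f/f range on both. The third, a dim probe set, had 41.3, 63.9 and 58.3 against 114.8, 80.7 and 76.7, with no overlap. The log2 differences were 0.36 ± 0.19, 0.50 ± 0.20 and 0.60 ± 0.26 (SE), and they stayed between 0.20 and 0.69 over the 3 probe sets with any 1 tumour left out.

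Coro1b, a coronin of many tissues that acts at the leading edge of moving cells, had 370.7, 420.9 and 384.3 in the Notch1+/+ tumours and 402.2, 492.4 and 662.9 in the Notch1f/f tumours. The Notch1+/+ values lay close together, with a range of 1.14-fold, and the Notch1f/f values were spread over 1.65-fold, with tumour 3 at the top. The groups overlapped because Notch1f/f tumour 1 lay below Notch1+/+ tumour 2. The log2 difference was 0.36 ± 0.22 (SE) and dropped to 0.18 without Notch1f/f tumour 3.

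Summed markers of leukocytes also varied among the tumours. The 9 T cell genes summed to 14078, 17846 and 16211 in Notch1+/+ tumours 1 to 3 and to 19188, 18796 and 22203 in Notch1f/f tumours 1 to 3, so the summed levels did not overlap. For 2 of the 9 genes the groups did not overlap, both higher in the Notch1f/f tumours. Over all tested genes, 9.15% were higher and 9.17% lower without overlap, which is the share to set beside the marker counts here. The 10 macrophage genes summed to 256 to 928 in the Notch1+/+ tumours and to 1472 to 2879 in the Notch1f/f tumours, with 5 of 10 higher without overlap. The sums of 7 dendritic cell genes, 233 to 1143 against 887 to 3351, overlapped. Those of 7 B cell genes, 49 to 203 against 73 to 292, overlapped as well. Each list had 2 genes higher without overlap. In Notch1+/+ tumours 1 and 2, Ccr9 alone had 540.8 and 796.8 of dendritic cell sums of 635 and 1143. It had 40.2 in Notch1+/+ tumour 3 and 293.3, 562.1 and 198.7 in Notch1f/f tumours 1 to 3. The dendritic cell sum without Cd74, its brightest gene, was 156 to 992 against 639 to 1521, and a sum without Ccr9 was not taken. Flt3, Xcr1 and Siglech of this list did not pass the filter on dim signal. Without Blk, which made up to 74.7% of it, the B cell sum was 40 to 51 against 70 to 241. No macrophage or dendritic cell marker was under an intensity of 7.6 on every array, while the B cell marker Cr2 was. Notch1f/f tumour 3 had the highest sum of all 4 lists and the highest Coro1b, and the highest Coro1a on its 2 brighter probe sets. Notch1+/+ tumour 2 lay above Notch1f/f tumours 1 and 2 on the brightest Coro1a probe set, at 3902.6, with a lower T cell sum than both. The part of these cells in the Coro1a and Coro1b values was not tested.

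**Figure D2:**
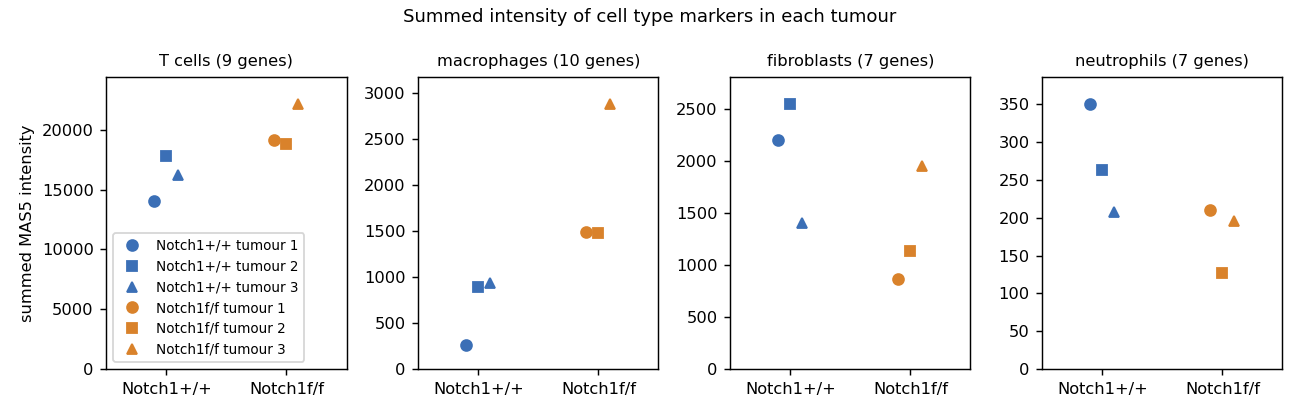
Summed MAS5 intensity of the measured markers of T cells, macrophages, fibroblasts and neutrophils in each tumour, with Notch1+/+ tumours in blue and Notch1f/f tumours in orange, and an axis that starts at 0. The T cell and macrophage sums do not overlap between the groups, while the fibroblast and neutrophil sums, with every measured marker included, do.

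Coro1c, a widely expressed type I coronin of cell protrusions, was read by 4 probe sets that disagreed in size. The brightest, an s_at design that may catch more than 1 gene, had 378.7, 380.6 and 314.1 in the Notch1+/+ tumours and 279.9, 306.3 and 254.7 in the Notch1f/f tumours, with no overlap and a log2 difference of -0.33 ± 0.20 (SE). The next had 91.7, 153.0 and 159.4 against 54.3, 94.5 and 43.0, a log2 difference of -0.93 ± 0.32. Its groups overlapped through Notch1+/+ tumour 1 and Notch1f/f tumour 2. A dim probe set had 13.9 to 23.2 against 12.5 to 22.4 and a log2 difference of -0.02 ± 0.22, whose sign turned with quantile normalisation (0.05) and median centring (0.06). The last reached at most 6.3 on any array, and it was the only coronin probe set that did not pass the filter on dim signal. The 2 probe sets with clear signal thus shared a direction, with Notch1f/f tumour 3 the lowest on both.

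Coro7, the Golgi coronin, was read by 6 probe sets. The brightest, an x_at design that may catch related transcripts, had 831.7, 1499.6 and 1485.2 in the Notch1+/+ tumours. It had 1695.7, 1267.6 and 1504.5 in the Notch1f/f tumours, which overlapped, and a log2 difference of 0.26 ± 0.25 (SE). A further 4 probe sets, among them an x_at and an s_at design, also overlapped, with log2 differences from -0.15 ± 0.29 to 0.41 ± 0.25. The sixth had 78.0, 93.9 and 87.9 against 296.3, 116.6 and 132.9, with no overlap and a log2 difference of 0.84 ± 0.33. Notch1f/f tumour 1 was far above the rest on it, and without this tumour the difference was 0.46. The Notch1+/+ values of this probe set had a range of 1.20-fold, against 1.79-fold to 2.06-fold on the other 5, so it varied differently among tumours of 1 genotype. The positions of these probe sets within Coro7 were not looked up.

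**Figure D3:**
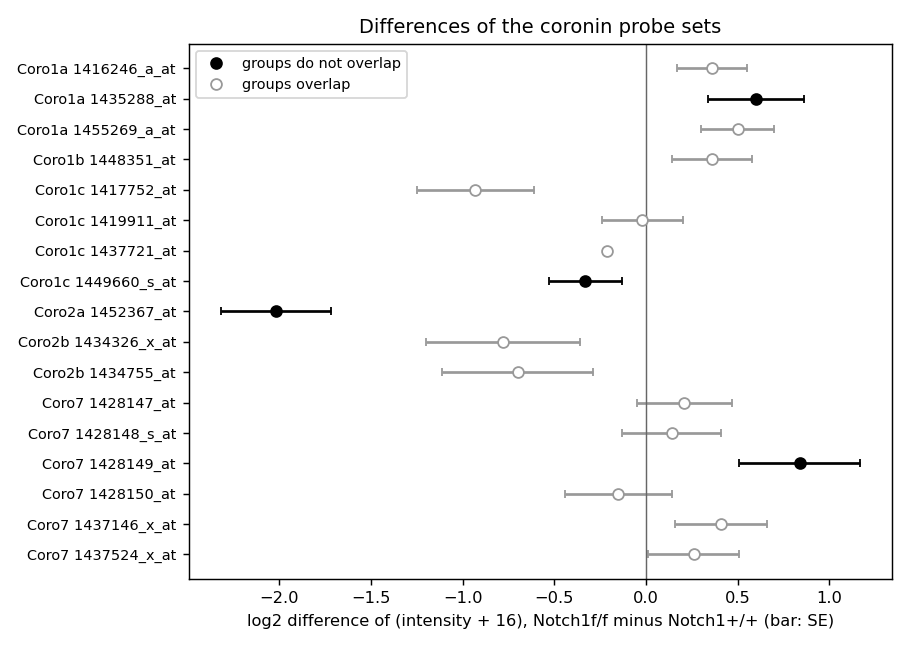
Log2 difference of intensity + 16, Notch1f/f minus Notch1+/+, for each coronin probe set, with bars of 1 SE and filled points where the groups do not overlap. Coro2a lies farthest from 0 at -2.02, the Coro1a probe sets lie at 0.36 to 0.60, and those of Coro7 spread from -0.15 to 0.84. The Coro1c probe set under the filter has no SE.

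A single tumour was lowest for much of the family. Notch1+/+ tumour 1 had the lowest value of all 6 tumours on 10 of the 17 probe sets, which were all those of Coro1a, Coro1b and Coro7. The same tumour had the lowest summed intensity of T cell, macrophage and B cell markers, but not of dendritic cell markers. Without it, the log2 differences of the Coro1a probe sets were 0.20, 0.45 and 0.36, and that of Coro1b was 0.33. For Coro7, 4 of 6 were then below 0, with the brightest at -0.01, and the other two were at 0.17 and, for the probe set without overlap, 0.78. Leaving out Notch1f/f tumour 2 instead changed the sign of none of the 17 differences. Notch1f/f tumour 1 alone was the lowest on 4 probe sets, of Coro1c, Coro2a and Coro2b, and the highest on 5 others, of Coro1a and Coro7.

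Among 12042 other genes, each read by its brightest probe set, the 6 with the profile most like that of Coro2a were Rab34, Laptm4b, Cadm4, Ppp1r3e, Vegfa and Saa3. Likeness was the root mean square distance over the 6 tumours between log2 profiles, each centred on its own mean, so it holds the difference between the groups as well as the spread within them. The distance was 0.18 for Rab34, a small GTPase of lysosomes and cilia, and 0.29 for Laptm4b, a lysosomal membrane protein. Its median over all genes was 1.09, close to the 1.07 of a gene that did not vary at all. Rab34 had 171.3, 262.3 and 198.4 in the Notch1+/+ tumours and 29.1, 47.2 and 68.7 in the Notch1f/f tumours. Laptm4b had 455.6, 403.9 and 395.5 against 82.7, 137.5 and 220.7. Like Coro2a, both were lowest in Notch1f/f tumour 1 and highest of that group in tumour 3. The adhesion molecule Cadm4 (0.37), the glycogen-targeting subunit Ppp1r3e (0.37), the growth factor Vegfa (0.38) and the acute-phase protein Saa3 (0.39) followed. The genes were picked for this likeness, so it is a description. Of the other coronins, Coro2b came nearest, at 0.75 and 0.77, with a Coro1c probe set almost as near, at 0.78. A Coro7 probe set was farthest, at 1.58.

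**Figure D4:**
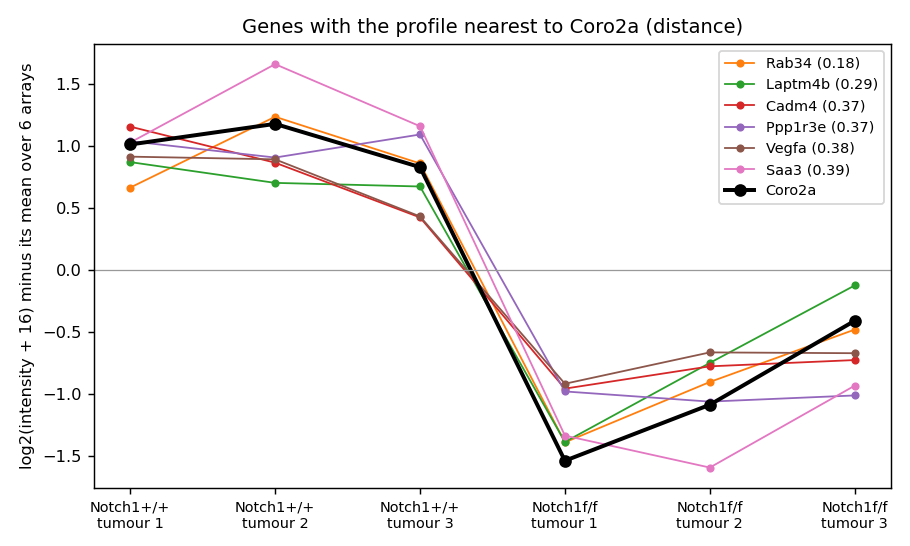
Log2(intensity + 16) minus its mean over the 6 tumours for Coro2a (black) and the 6 genes with the nearest profiles, with the distance of each in the legend. Lines only join the points of a gene. Rab34, at a distance of 0.18, follows Coro2a in both groups.

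The proteins that work with coronins were examined in 7 lists, with 86 tested genes, each by its brightest probe set. None of the 86 passed an adjusted p of 0.05 in limma, where 0.0415% of 12043 genes did, and 15 had an unadjusted p under 0.05 (10 higher and 5 lower), where 13.0% of all genes did. With arrays weighted by quality, 1 passed, Evl, where 0.158% of all genes did. The groups did not overlap for 18 genes, 16 of them higher with floxed Notch1 and 2 lower, while over all genes 9.15% were higher and 9.17% lower without overlap. The median log2 difference of the 86 was 0.20, beside -0.01 for all genes, and the gap between these medians was 0.13 to 0.25 over the alternatives, leaving out each tumour included.

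The Arp2/3 complex, the filament nucleator to which type I coronins bind, had 6 tested subunits, all with a log2 difference above 0 (median 0.30) and 2 without overlap. None passed limma and none had an unadjusted p under 0.05. Actr2, Actr3b, Arpc1b and Arpc3 were not analysed here, so these values cover a part of the complex. With the Notch1f/f tumours given before the Notch1+/+ tumours here and in the lists that follow, Arpc5l had 1101 ± 180 against 824 ± 118 (SD, n = 3), and Arpc5 1320 ± 209 against 1059 ± 90.2. Arpc2, which anchors the complex to the older filament, had 3067 ± 585 against 2520 ± 553, Actr3 3725 ± 203 against 3590 ± 562, and Arpc1a 732 ± 81.8 against 551 ± 200. Of the 3 Actr3 probe sets, 1 had a difference below 0 (-0.09). Proteins that switch the complex on had 17 tested genes, with 12 above 0, a median of 0.28, and 4 higher and 1 lower without overlap. Was, the Wiskott-Aldrich protein of blood cells, had 569 ± 156 against 383 ± 55.0 (limma adjusted p = 0.369). Abi1 and Brk1, subunits of the WAVE complex, had 848 ± 36.5 against 629 ± 11.5 and 1364 ± 252 against 975 ± 27.6 (limma adjusted p = 0.330 for each). Wasf2, a WAVE protein, had 1666 ± 508 against 1029 ± 154, and Dock2, a Rac activator of lymphocytes, 629 ± 33.8 against 467 ± 173, while another Dock2 probe set had a log2 difference of -0.28. Wasf1 was the gene without overlap on the lower side, at 12.6 ± 3.70 against 34.3 ± 18.5.

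Filament disassembly, the step at which coronins work with cofilin, showed no common direction. The log2 difference was positive for 7 of 16 tested genes and negative for 9, with a median of -0.08 and 1 unadjusted p under 0.05. Cfl1, the main cofilin of blood cells, had 5883 ± 678 against 4970 ± 205, without overlap (limma adjusted p = 0.446). Wdr1, which speeds cofilin's work, had 1074 ± 125 against 1102 ± 241. Pdxp, a phosphatase that activates cofilin, was lower without overlap, at 142 ± 48.0 against 242 ± 11.3 (limma adjusted p = 0.298). Gmfb, which takes branches apart, had 857 ± 323 against 1222 ± 265, and the cofilin phosphatase Ssh2 529 ± 89.3 against 420.5 ± 109.

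Formins, profilins and capping proteins, which build and cap unbranched filaments, had 14 of 17 genes above 0 and a median of 0.23. Evl, a filament elongation factor of the Ena/VASP family, had the smallest p of the 86 genes. It had 650.6, 536.5 and 389.9 in Notch1f/f tumours 1 to 3 and 134.1, 160.4 and 182.7 in Notch1+/+ tumours 1 to 3, a log2 difference of 1.61 ± 0.25 (SE; limma adjusted p = 0.0981, under the threshold only with array weights). All 4 tested Evl probe sets had a difference above 0, from 0.35 to 1.61. Diaph1, a formin, had 803 ± 122 against 434 ± 126 (limma adjusted p = 0.267) and the capping subunit Capza2 1307 ± 96.3 against 991 ± 75.5, both without overlap. Fmnl2, another formin, had 39.5 ± 40.6 against 148 ± 99.3, with overlap.

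Actins and other filament proteins had 11 of 17 above 0 and a median of 0.14. Of the actins themselves, Actb had 6709 ± 445 against 6644 ± 205 and Actg1 4263 ± 149 against 3995 ± 310, both with overlap, while a dimmer Actb probe set had a log2 difference of 1.56. Msn, a linker of filaments to the membrane, had 1854 ± 284 against 1195 ± 119, without overlap on this probe set, while its other probe set had a log2 difference of -0.20. Myh10, a non-muscle myosin, had 70.0 ± 27.8 against 231 ± 188, Tpm4, a tropomyosin, 292 ± 114 against 585 ± 242, and the plastin Pls3 45.5 ± 18.0 against 20.8 ± 26.4, all with overlap.

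The list for the corepressor complex in which Coro2a has been found had 5 tested genes, all above 0 on their brightest probe set, with a median of 0.21, and 3 of 5 above 0 when the probe sets of a gene were averaged. Gps2 had 237 ± 30.7 against 153 ± 38.8, without overlap (limma adjusted p = 0.343). Tbl1x had 889 ± 65.7 against 776.5 ± 63.6 and the deacetylase Hdac3 376 ± 11.1 against 317 ± 77.2. Nr1h3, a nuclear receptor listed with the complex though not a subunit of it, had 20.3 ± 5.25 against 15.2 ± 2.77. The other two Tbl1x probe sets had log2 differences of 0.35 and -0.59. Ncor1 was not analysed here. Calcineurin and NFAT genes, linked to Coro1a through calcium signalling in T cells, had 5 of 8 above 0 and a median of 0.18. Plcg1, the phospholipase of T cell receptor signalling, had 1025 ± 278 against 558 ± 57.0, Nfatc3 869 ± 67.1 against 672 ± 52.1 and Ppp3r1 614 ± 57.8 against 488 ± 47.8, all without overlap, and Ppp3cb 812 ± 219 against 1098 ± 401. A dim Plcg1 probe set, at 4.3 to 15.0 over the 6 tumours, had a log2 difference of -0.30.

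**Figure D5:**
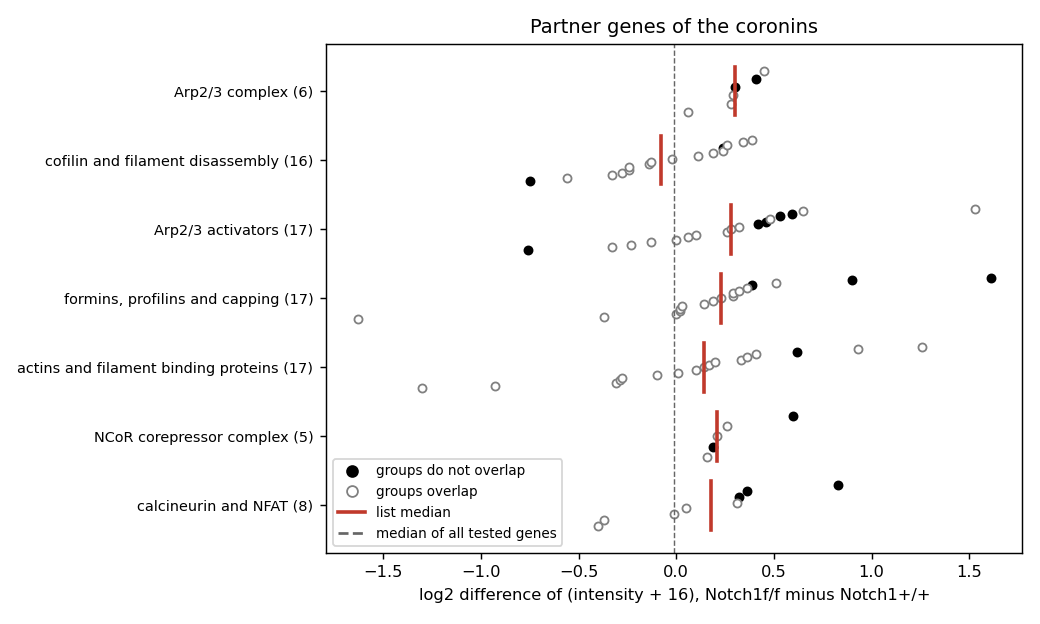
Log2 difference of intensity + 16, Notch1f/f minus Notch1+/+, of each tested gene in the 7 lists (number of genes in brackets), with filled points where the groups do not overlap, a red bar at the list median and a dashed line at the median of all genes, -0.01. Medians run from -0.08 for filament disassembly to 0.30 for the Arp2/3 complex.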

How the data were processed

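Arrays of 6 tumours were analysed, 3 per group, with groups taken from the genotype labels. The authors deposited 1 linear signal intensity per probe set, made with MAS5 (no version given) per the submitters' processing notes. The trimmed mean without the top and bottom 2% was 100 on each array. Detection calls were not used here. Of 45101 probe sets, 64 controls were left out. Of the others, 34945 had 1 gene symbol in the array's annotation, 932 several and 9160 none in the table used, and matching through Entrez identifiers to RefSeq (GRCm38.p6) changed 0 symbols.

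After 16 was added, the deposited intensities were taken to log2, which understates the change of dim genes. Probe sets under the 40th percentile of the mean log2 value (4.56, an intensity of 7.60) were left out, leaving 27022. The genotypes were compared in limma 3.58.1 (R 4.3.3) by lmFit and eBayes with a mean-variance trend, two-sided, with Benjamini-Hochberg adjustment over all 27022. The fit was tested on simulated data. The labels give no batch or pairing, and no covariate was used. The tumours are those of separate mice by their titles.

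The family and all lists were chosen with earlier results of these data known. The rule for named genes took every coronin probe set, Notch1 and Ikzf1, up to 4 genes per list with the smallest p, a fixed set (Actb, Actg1, Cfl1, Arpc2, Actr3, Was, Dock2, Wdr1, Ncor1 and Hdac3) and the 6 genes nearest to Coro2a. A further list of partner genes is not reported here. A gene was represented by its probe set with the highest mean. Alternatives were a pseudocount of 1 or 64, array weights, no filter or the 60th percentile, median centring, quantile normalisation, no trend in eBayes, averaging the probe sets of a gene, and each array left out; marker sums without their brightest gene were added after seeing the data. Figures were drawn with matplotlib 3.10.9.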

Additional observations from a re-analysis of the deposited data

How the results depend on the processing

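The Coro2a log2 difference was -1.60 to -2.21 over the alternatives that kept all tumours and -1.75 to -2.32 with 1 tumour left out. Over the 17 coronin probe sets and 14 alternatives, 237 of 238 differences moved by less than the spread between replicates. The exception was the dimmest Coro1c probe set (-1.31 with a pseudocount of 1). The count includes the alternatives with no filter, a stricter filter or no trend in eBayes, which cannot change a fitted difference. The unchanged values under those alternatives therefore say nothing about stability. The sign turned 10 times, on 5 probe sets of Coro1c and Coro7 whose reported differences lay between -0.15 and 0.26. The count of coronin probe sets past limma was 0 in each alternative except array weights, with 1, and that of partner genes likewise, with 1. Coronin probe sets without overlap numbered 5 to 8 with 1 tumour left out, where fewer arrays also raised the share over all tested probe sets from 18.6% to between 25.5% and 37.3%. They were 8 without Notch1+/+ tumour 2 (26.2% of all) or Notch1f/f tumour 2 (37.3%). With Pdgfrb left out, chosen after seeing the data, the log2 difference of the fibroblast marker sum went from -0.68 to -2.30. Col1a2 made up most of the remaining sum in Notch1+/+ tumours 1 and 2. All probe sets called numbered 3 with no filter, 15 with median centring, 27 with array weights and 2 to 14 with 1 tumour left out (from 14 without Notch1+/+ tumour 3 and 12 without the second Notch1f/f tumour to 3 without the first and 2 without the third). The cause was not tested. No paired analysis was possible because the labels pair no tumours, which are those of separate mice by their titles. The labels give no replicate numbers either, and the numbers 1 to 3 used here only tell the tumours of a group apart.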

Other observations

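The sum of 7 neutrophil genes was 208 to 351 in the Notch1+/+ tumours and 127 to 210 in the Notch1f/f tumours. Without its brightest gene, S100a8, it was 139 to 204 against 75 to 116. For 2 of the 7 genes the Notch1f/f tumours were lower without overlap. Over all tested genes, 9.17% were lower and 9.15% higher without overlap. The 8 endothelial genes summed to 215 to 384 against 298 to 306, and Cdh5 and Tek were under an intensity of 7.6 on every array. The 8 thymic epithelial genes summed to 70 to 160 against 93 to 153, with Krt14 and Psmb11 under that intensity on every array. The 1 gene lower without overlap was Psmb11 itself. The 5 erythroid genes summed to 62 to 76 against 36 to 90. The 6 NK cell genes summed to 34 to 95 against 30 to 73, with Ncr1, Klra8 and Gzmb under that intensity on every array. The 1 gene higher without overlap, Klrd1, did not pass the filter on dim signal. The part of these cells in the coronin values was not tested.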
